A study of Homo sapiens with 6 samples.

Results

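The kinetochore and centromere proteins described here are 35 genes, taken from the count table by their symbols, out of 54261 gene rows. The list of symbols was chosen with earlier results of these data known. All 35 had a row and all 35 passed the filter on low counts that left 16642 genes for testing. They were measured in 7R, a line derived from 786-O cells that the labels call sunitinib-resistant, and in 786-O cells labelled control, as total RNA from 3 libraries of each line. 786-O is a widely used cell line from a human clear-cell kidney cancer that lacks functional VHL, and sunitinib inhibits the receptors of VEGF and PDGF and related kinases. No genetic change is named for either line. It is not stated whether sunitinib was present at harvest, whether 7R is 1 clone, or whether the 3 libraries of each line stem from separate cultures. The p-values therefore refer only to how far these libraries vary, which may be technical variation.

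The kinetochore is the protein assembly that joins each chromosome to the microtubules of the mitotic spindle. It is built on centromeric chromatin marked by the histone H3 variant CENPA: an inner layer of CENP proteins binds this chromatin, an outer layer made of KNL1 and the MIS12 and NDC80 complexes binds microtubules, and checkpoint proteins gathered there hold back anaphase until all chromosomes are attached. Many of these transcripts are made in S, G2 and M phase, so that in cultured tumour cells their level in bulk RNA moves with the share of cells in those phases. In bulk RNA a smaller share of cells with a transcript cannot be told apart from less of it per cell.

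Library totals ranged from 37919629 to 38131634 counts in the resistant line and from 48264905 to 52221491 counts in the control line. Levels are CPM, the counts of a gene relative to the library total, scaled by TMM factors, which were 1.12 to 1.14 in resistant and 0.867 to 0.912 in control libraries. Fold changes are resistant over control, with adjusted p-values from edgeR's quasi-likelihood test over all genes tested and a threshold of 0.05. Genes with a high GC content tended to have lower fold changes, with a Spearman rho of -0.68 over 14250 tested genes that have a GC value, and kinetochore transcripts are rich in A and T (median GC content 42.6%, against 48.9% over all tested genes). Results are therefore also given with a fitted curve over GC content and transcript length removed from every library, called GC-adjusted below. The adjustment removes any difference tied to GC content, whatever its source. Resistant replicate 1 stood apart from its line: the chi-square of its counts divided by the degrees of freedom was 62.9 and 60.1 against the other resistant libraries, where it was 8.94 between those 2 and 12.4 to 35.5 between control libraries.

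The cell identity labels were checked against marker genes, because the extraction text names a brain region. The renal transcription factor PAX8 was at 407 ± 8.89 CPM in the resistant line and 545 ± 47.2 CPM in the control line (SD, n = 3 each); it was lower before adjustment (-0.42, adjusted p = 0.00202) and higher after it (0.50, adjusted p = 9.81e-05). As background for all marker lists, 39.3% of all tested genes were higher and 36.9% lower, and 34.3% and 32.6% after GC adjustment. The renal list has a median GC content of 57.8%, against 48.9% over all tested genes. Of 11 tested renal epithelial markers 0 were higher and 7 lower, and after GC adjustment 3 were higher and 5 lower. The smallest p-values among them belonged to KRT19 and KRT8, epithelial keratins, and VIM, the intermediate filament protein vimentin, with log2 fold changes of -6.81, -1.96 and -2.05 and GC-adjusted values of -5.42, -0.64 and -1.27 in the order KRT19, KRT8, VIM. The renal list summed to 3832 to 4687 CPM in resistant and 12865 to 14038 CPM in control libraries. Most of this sum was VIM, with a mean of 2406 CPM in the resistant and 9987 CPM in the control line.

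Of 13 brain markers, 6 were abundant enough to test, of which 4 were higher and 1 lower in the resistant line, and after GC adjustment 5 were higher and 1 lower. Those with the smallest p-values were SNAP25 and SYT1, proteins of synaptic vesicle release, and MBP, a myelin protein, with log2 fold changes of 1.96, 2.49 and 0.65 and GC-adjusted values of 1.34, 1.47 and 1.62. OLIG2, MOG, GAD2 and NEUROD6 had 0 counts in every library, and the whole brain list summed to 53.1 to 60.4 CPM in resistant and 32.7 to 35.6 CPM in control libraries. Most of the brain sum was MBP, with a mean of 39.4 CPM in the resistant and 25.1 CPM in the control line. Of 7 blood and vessel markers, 2 could be tested, of which 1, CD68, was lower (-2.19, GC-adjusted -1.22). The leukocyte markers PTPRC and CD3E had 0 counts throughout, and this list summed to 8.76 to 10.6 CPM in resistant and 40.3 to 47.2 CPM in control libraries. Nearly all of that sum was CD68, with a mean of 9.24 CPM in the resistant and 42.1 CPM in the control line. The part of these marker differences in the results below was not tested.

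Of the 35 kinetochore and centromere genes, 14 (40%) rose in the resistant line, 13 (37.1%) fell, and 8 did not pass the test. Over all 16642 genes 39.3% were higher and 36.9% lower (76.2% in either direction, against 77.1% of the 35), so these shares are close to the background. Scaled by library size alone, which raised the median log2 fold change of all genes by 0.34, 18 of the 35 were higher and 12 lower, and over all genes 7851 were higher and 4720 lower, against 6540 and 6143 with TMM. The median log2 fold change of the 35 was 0.087, against 0.049 over all genes. By at least 2-fold, 6 rose and 8 fell, 14 of 35, where 49.4% of all genes changed by as much. The groups of libraries did not overlap for 28 of the 35 genes (80%), against 80.3% of all genes. The summed level of the 35 transcripts was 1487, 1776 and 1670 CPM in the resistant libraries and 1892, 1886 and 1859 CPM in the control libraries. On this scale every resistant library was below every control library. As CPM of the library total, without TMM factors, the sum was 1688, 1993 and 1870 in the resistant libraries and 1726, 1668 and 1612 in the control libraries, where resistant replicates 2 and 3 were above all control libraries and replicate 1 lay among them, so the direction of the sum depends on the scaling.

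GC adjustment changed the balance between the directions. Of the 35 genes, 7 (20%) were then higher and 22 (62.9%) lower, and 6 did not pass, where over 14250 genes with a GC value 34.3% were higher and 32.6% lower (66.9% in either direction, against 82.9% of the 35). The median of the 35 became -0.35, against 0.018 over all genes. Both before and after the adjustment, 6 genes were higher (CENPK, NSL1, CENPE, CENPF, SPDL1 and CENPJ) and 11 were lower (CENPA, CENPM, CENPN, CENPO, CENPP, CENPT, CENPW, SPC24, PMF1, ZWINT and CDCA8). Another 5 turned from higher to lower (CENPI, CENPQ, NUF2, MIS12 and SKA2) and MAD1L1 turned from lower to higher, together 6 of 35, against 9.59% of all genes that turned in either direction. CENPU, NDC80, ZW10 and INCENP were called before the adjustment and not after it. CENPH, CENPL, SPC25, DSN1, SKA3 and MAD2L1 were called after it and not before, each as lower, while SKA1 and BUB3 were called in neither. The groups of GC-adjusted values did not overlap for 25 of the 35 (71.4%), against 71.7% of all genes. By at least 2-fold after the adjustment, CENPJ was higher and 6 genes (CENPN, CENPW, SPC24, SPC25, MAD2L1 and CDCA8) were lower, 7 of 35, where 23.6% of all genes changed by as much. SPC25 was among them through control replicate 3, without which its GC-adjusted value was -0.88. With each library left out in turn, 5 to 7 genes were higher and 16 to 20 lower after GC adjustment. The GC-adjusted calls of CENPI, CENPM, CENPQ, MIS12, PMF1, SKA2, CENPE and CENPF were each lost without at least 1 library, as given with each gene. The plot of fold changes before and after the adjustment shows how far each gene moved.

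**Figure D1:**
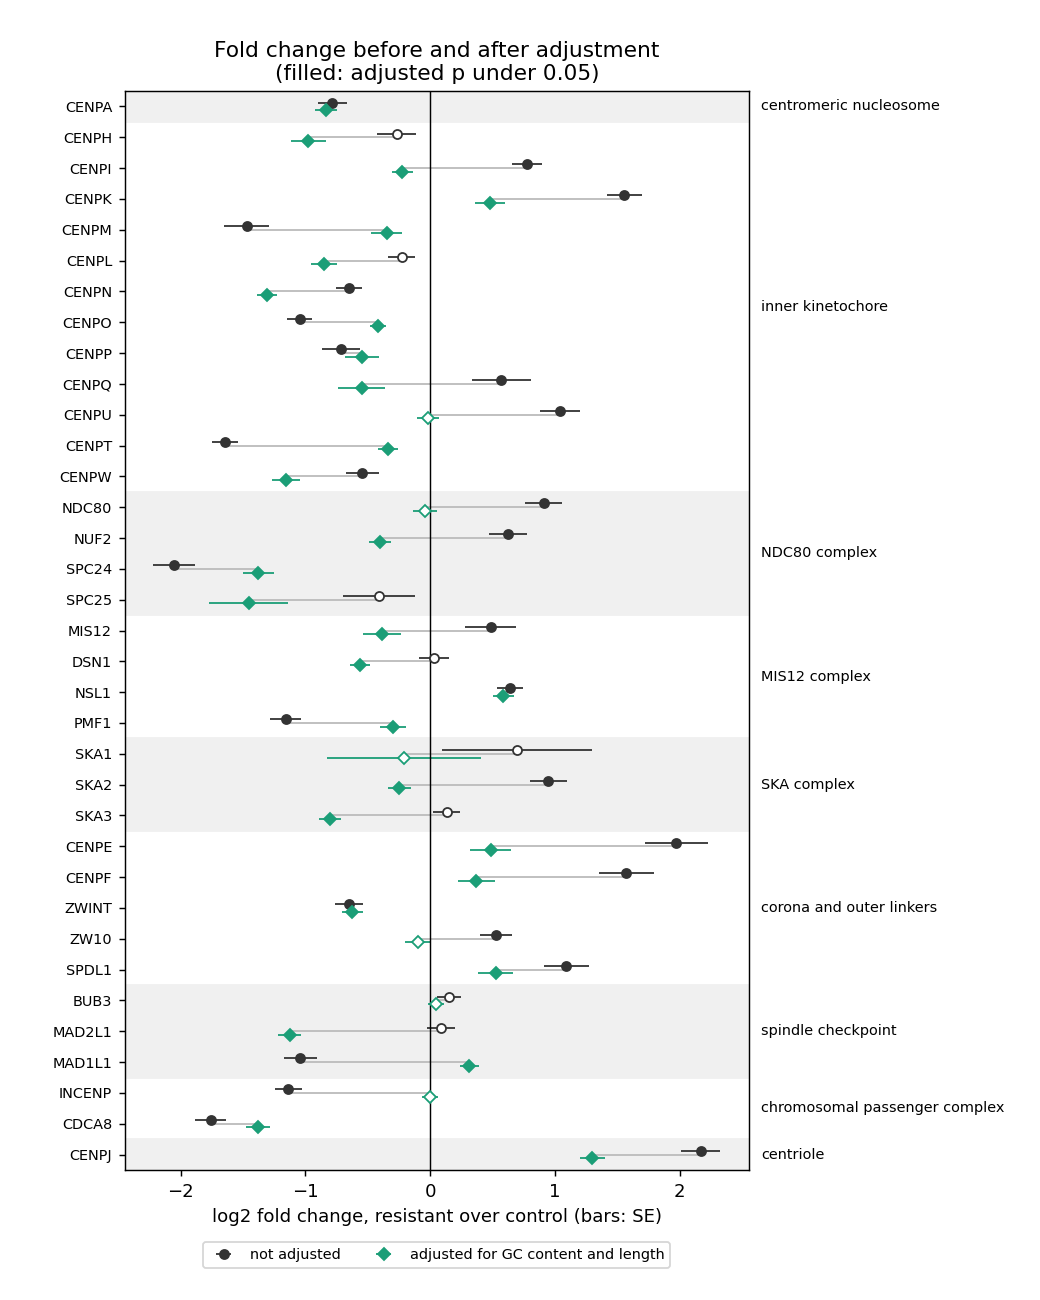
Log2 fold change (x axis, resistant over control) of each of the 35 genes (y axis, grouped by role) before adjustment (grey circles) and after GC adjustment (green diamonds), with SE bars and filled symbols for an adjusted p under 0.05. The genes span -2.06 (SPC24) to 2.17 (CENPJ) before adjustment and -1.45 (SPC25) to 1.30 (CENPJ) after it.

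Among the 35 genes themselves, the unadjusted fold change was ordered by GC content. Spearman's rho was -0.78 over the 35 genes, which share the same 6 libraries and are not independent, and -0.10 for the GC-adjusted values. Of the 7 genes with a GC content of at most 40%, 6 were higher and 0 lower, with a median log2 fold change of 0.78, where 1729 tested genes in that range had a median of 1.32. In the range above 40% and up to 45%, 7 of 14 were higher and 1 was lower, with a median of 0.51 against 0.87 for 3209 genes. Of 6 genes above 45% and up to 50%, 1 was higher and 4 lower, with a median of -0.60 against 0.15 for 2750 genes. All 8 genes above 50% were lower, with a median of -1.32 against -0.96 for 6562 genes. In each of the 4 ranges the median of the kinetochore genes lay below that of all genes of the range.

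**Figure D2:**
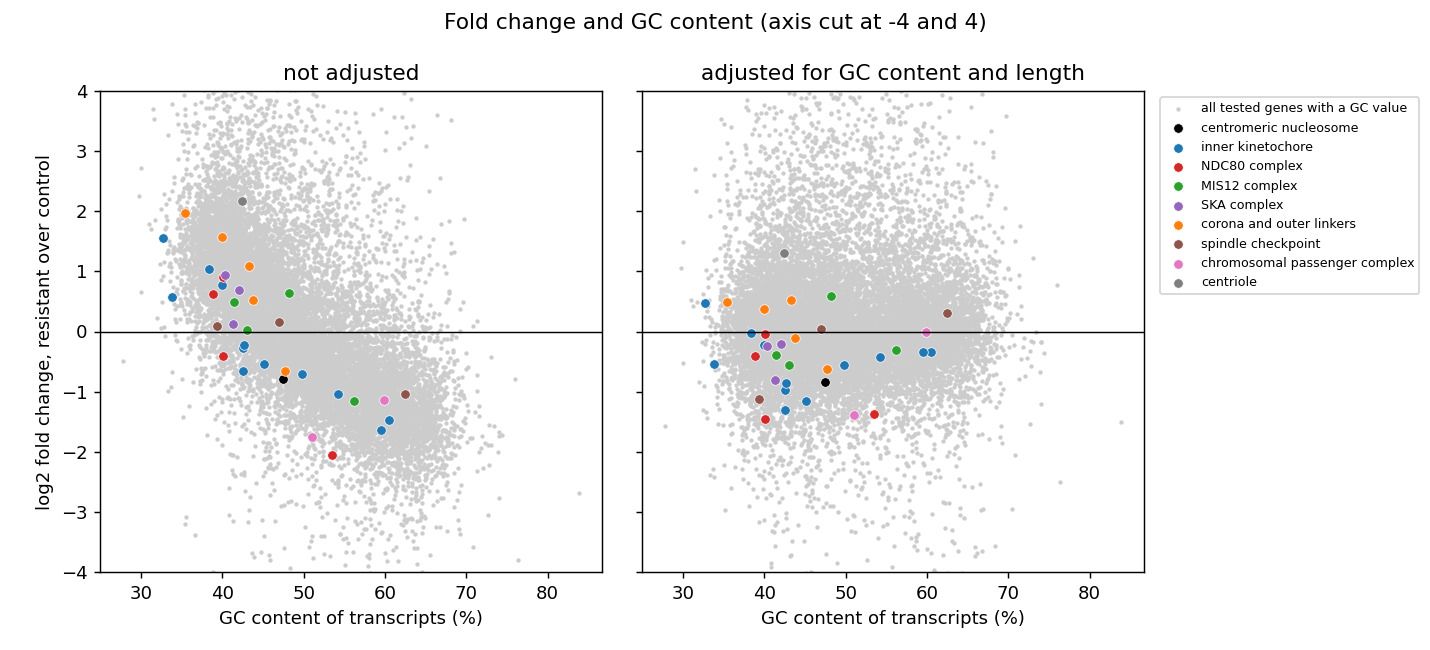
Log2 fold change (y axis, resistant over control) against the GC content of the transcripts (x axis, %) for all tested genes with a GC value (light grey) and the 35 kinetochore and centromere genes (coloured by role), before adjustment (left) and after GC adjustment (right). Spearman's rho over the 35 genes was -0.78 on the left and -0.10 on the right.

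GC content also ordered the 35 genes within the resistant line. Resistant replicate 1 was the lowest of its 3 libraries for 18 genes and the highest for 12. The log2 ratio of replicate 1 to the mean of the other resistant libraries had a Spearman rho of 0.82 with GC content over the 35 genes, and of 0.53 over all tested genes with a GC value. It reached -1.03 for CENPE, with a GC content of 35.4%, and 0.70 for CENPM, with a GC content of 60.5%. Without resistant replicate 1, 14 of the 35 genes were higher and 14 lower, and after GC adjustment without it 7 were higher and 20 lower.

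**Figure D3:**
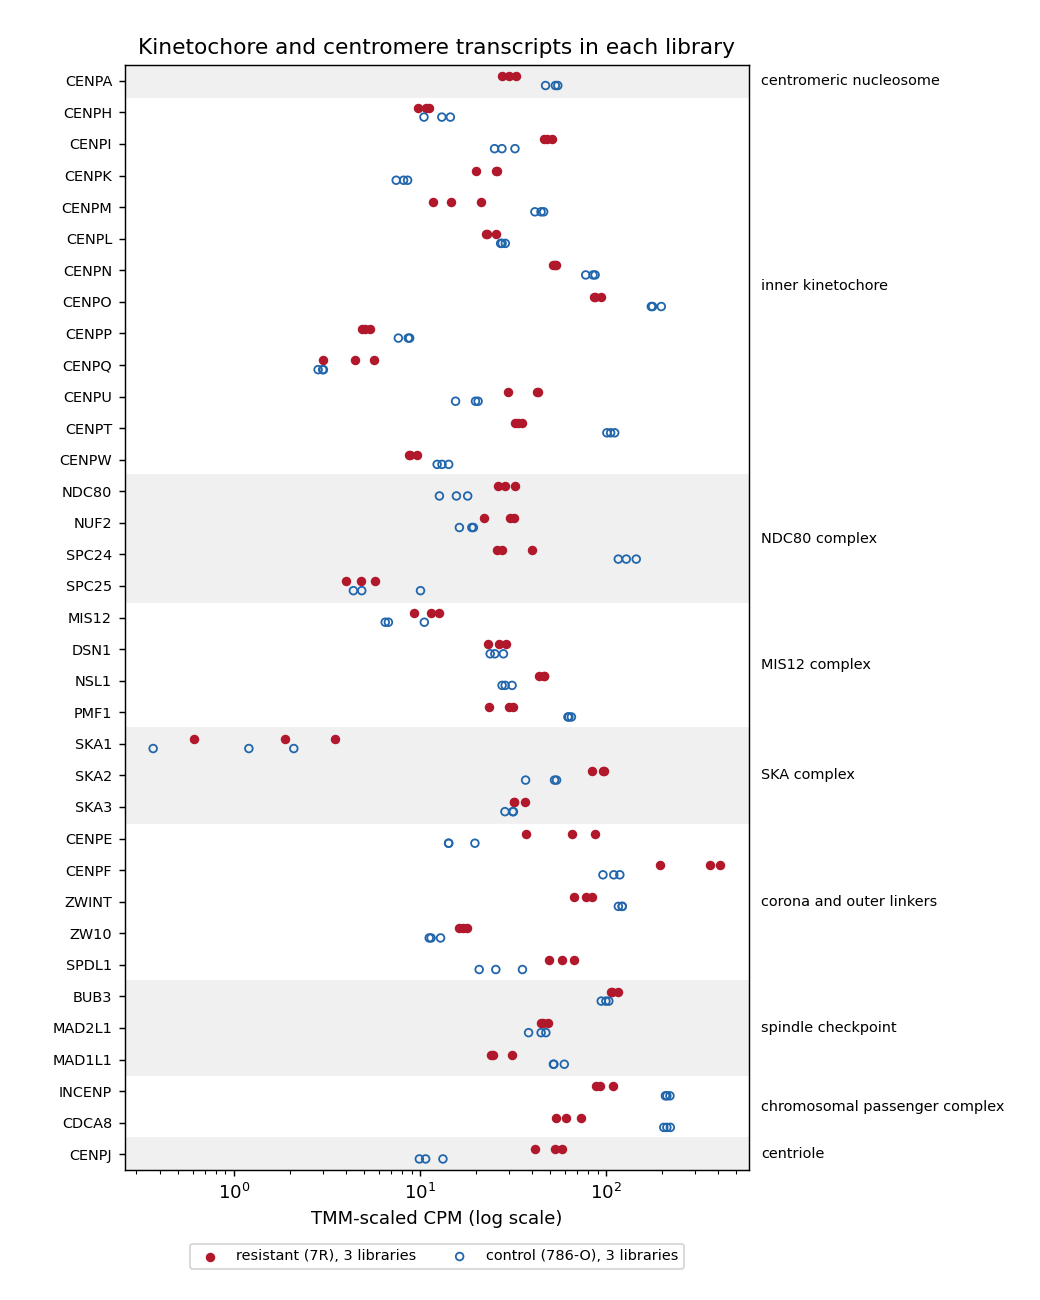
TMM-scaled CPM (x axis, log scale) of each of the 35 genes (y axis, grouped by role) in the 3 resistant libraries (filled red, upper row of each gene) and the 3 control libraries (open blue, lower row). The libraries of the lines are separate for 28 genes and overlap for 7.

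CENPA, the histone variant that marks the centromere, fell in the resistant line. Its level was 32.6, 27.6 and 29.9 CPM in the resistant libraries, against 47.2, 54.9 and 53.3 CPM in the control libraries. All resistant libraries lay below all control libraries, and the log2 fold change of -0.79 ± 0.11 (SE, adjusted p = 5.17e-05) was little changed by GC adjustment (-0.84, adjusted p = 9.23e-06); the GC content of its transcripts is 47.5%.

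The inner kinetochore, or constitutive centromere-associated network, was represented by 12 genes, of which 6 were lower and 4 higher in the resistant line, and after GC adjustment 10 were lower and 1 higher. As background for this and the following groups of genes, 39.3% of all tested genes were higher and 36.9% lower. After GC adjustment these shares were 34.3% and 32.6%. CENPT, a histone-fold protein that reaches from the centromere to the outer NDC80 complex, showed the largest change. Its level was 33.7, 32.5 and 35.1 CPM in the resistant libraries, against 101, 105 and 111 CPM in the control libraries, a separation of about 3-fold with no overlap, and the log2 fold change was -1.65 ± 0.10 (SE, adjusted p = 1.30e-07) and -0.34 after GC adjustment (adjusted p = 0.00342). Its histone-fold partner CENPW fell as well, with a log2 ratio of -0.54 ± 0.13 (SE, adjusted p = 0.00272) that became -1.16 after GC adjustment. Scaled by library size alone, CENPW did not pass (-0.20, adjusted p = 0.203). Per kilobase of transcript and without GC adjustment, CENPT and CENPW were at 17.2 and 17.2 CPM in the resistant line and at 53.7 and 25.1 CPM in the control line. The GC content of their transcripts is 59.5% and 45.1%. CENPT fell more than CENPW before GC adjustment and less after it.

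CENPO, of the CENP-O, P, Q and U group, was the most abundant inner kinetochore transcript by CPM. Its level was 93.6, 86.6 and 85.6 CPM in the resistant libraries, against 175, 177 and 197 CPM in the control libraries, with no overlap, and the log2 fold change was -1.05 ± 0.10 (SE, adjusted p = 1.87e-06, GC-adjusted -0.42). In the GENCODE annotation 28.3% of its exonic bases overlap exons of ADCY3 and PTRHD1 on the other strand, and because the strand setting of the counting is not given in the sources used here, their reads may be counted together. ADCY3 itself was at 49.98 ± 12.4 CPM in the resistant line and 132 ± 13.6 CPM in the control line (SD, n = 3 each). CENPP, of the same group, fell by 0.71 on the log2 scale (adjusted p = 0.00106, GC-adjusted -0.55), and 34.4% of its exonic bases overlap IPPK, NOL8 and a further locus on the other strand. CENPU, which recruits the kinase PLK1 to the kinetochore, rose to 38.3 ± 7.39 CPM in the resistant line, against 18.6 ± 2.71 CPM in the control line (SD, n = 3 each), and after GC adjustment its log2 fold change of 1.04 ± 0.16 (SE) became -0.019 (adjusted p = 0.859). Opposite-strand PRIMPOL overlaps 17.3% of its exonic bases.

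CENPQ, the partner of CENPU, was called in opposite directions. Its level was 3.01, 4.46 and 5.68 CPM in the resistant libraries, against 2.998, 2.83 and 3.03 CPM in the control libraries, with resistant replicate 1 inside the control range. The log2 fold change was 0.57 ± 0.24 (SE, adjusted p = 0.0444) and -0.55 after GC adjustment (adjusted p = 0.0231). The unadjusted call was lost without any 1 of resistant replicates 2 and 3 and control replicates 1, 2 and 3, with log2 fold changes of 0.34 to 0.77 and an adjusted p of up to 0.242 over the 6 fits with a library left out. The GC-adjusted call was lost without resistant replicate 1 (-0.43, adjusted p = 0.0738), resistant replicate 2 (-0.50, adjusted p = 0.0811) or control replicate 3 (-0.46, adjusted p = 0.0794).

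The CENP-H, I, K and M group, a coiled-coil and scaffold assembly within the inner kinetochore, was divided before adjustment. CENPK rose and stayed higher: its level was 19.9, 25.4 and 25.8 CPM in the resistant libraries, against 8.15, 7.44 and 8.57 CPM in the control libraries, with every resistant library above every control library, and the log2 fold change was 1.56 ± 0.14 (SE, adjusted p = 1.21e-06, GC-adjusted 0.48, adjusted p = 0.00399). Its transcripts have the lowest GC content of the 35, 32.7%. CENPI was at 46.6, 51.1 and 47.8 CPM in the resistant libraries, against 32.3, 27.5 and 25.1 CPM in the control libraries, again with no overlap. Its log2 fold change of 0.78 ± 0.12 (SE, adjusted p = 8.56e-05) turned to -0.22 after GC adjustment (adjusted p = 0.0350). That second call was lost in each fit that left out a library other than resistant replicate 1, with values of -0.17 to -0.24 and an adjusted p of up to 0.146.

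CENPM, a small protein of the same group with a GTPase-like fold, fell by 1.47 on the log2 scale (adjusted p = 1.37e-05, GC-adjusted -0.35, adjusted p = 0.0262). With GC content alone adjusted it no longer passed (-0.24, adjusted p = 0.116), nor with GC content and length adjusted and without resistant replicate 2 (-0.24, adjusted p = 0.0833), resistant replicate 3 (-0.36, adjusted p = 0.0512) or control replicate 1 (-0.33, adjusted p = 0.0608). CENPH did not pass the unadjusted test: its level was 11.2, 9.70 and 10.7 CPM in the resistant libraries, against 13.1, 14.5 and 10.5 CPM in the control libraries, and the groups overlapped. Its log2 fold change was -0.27 ± 0.15 (SE, adjusted p = 0.125; 0.0284 without control replicate 3), and -0.98 after GC adjustment (adjusted p = 7.87e-05).

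CENPN, which recognises the CENPA nucleosome, and its partner CENPL moved in the same direction after adjustment. CENPN fell to 52.9 ± 1.01 CPM in the resistant line, against 83.2 ± 5.01 CPM in the control line (SD, n = 3 each), with a log2 ratio of -0.65 ± 0.10 (SE, adjusted p = 9.26e-05, GC-adjusted -1.31, adjusted p = 1.56e-07); 24.9% of its exonic bases overlap opposite-strand genes, among them CMC2. CENPL was at 25.6, 22.6 and 22.9 CPM in the resistant libraries, against 28.7, 27.6 and 27.1 CPM in the control libraries. Although these groups did not overlap, the log2 fold change of -0.23 ± 0.11 (SE) missed the threshold (adjusted p = 0.0744; 0.0208 without resistant replicate 1), and it was -0.85 after GC adjustment (adjusted p = 2.20e-05).

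In the NDC80 complex, a rod-shaped tetramer whose NDC80 and NUF2 subunits bind the microtubule and whose SPC24 and SPC25 subunits anchor it to the inner kinetochore, NDC80 and NUF2 rose and SPC24 fell before adjustment, while after it 3 of the 4 were lower and 0 higher. SPC24 was at 40.1, 25.9 and 27.5 CPM in the resistant libraries, against 116, 128 and 145 CPM in the control libraries, and the highest resistant library was well below the lowest control library. The log2 fold change was -2.06 ± 0.17 (SE, adjusted p = 5.42e-07), the largest fall of the 35 genes, and -1.38 after GC adjustment (adjusted p = 1.97e-06). NDC80 rose to 29.03 ± 3.11 CPM in the resistant line, against 15.5 ± 2.66 CPM in the control line (SD, n = 3 each), with a log2 ratio of 0.91 ± 0.15 (SE, adjusted p = 1.09e-04), which was -0.043 after GC adjustment (adjusted p = 0.701).

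NUF2, the partner of NDC80, was at 21.97, 31.8 and 30.3 CPM in the resistant libraries, against 18.97, 19.3 and 16.3 CPM in the control libraries. These libraries did not overlap, and the log2 fold change of 0.62 ± 0.15 (SE, adjusted p = 0.00223) turned to -0.40 after GC adjustment (adjusted p = 0.00144). SPC25, the partner of SPC24, was at 3.98, 4.79 and 5.75 CPM in the resistant libraries, against 4.38, 4.86 and 10.1 CPM in the control libraries, where control replicate 3 stood above the other 5 libraries. Its log2 fold change was -0.41 ± 0.29 (SE, adjusted p = 0.212), 0.031 without control replicate 3, and -1.45 after GC adjustment (adjusted p = 0.00164), which became -0.88 without control replicate 3 (adjusted p = 0.00232).

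Per kilobase of transcript and without GC adjustment, SPC24 was closer to NDC80 and NUF2 in the resistant line, while SPC25 was further below them. NDC80, NUF2, SPC24 and SPC25 were at 13.4, 15.2, 13.5 and 3.57 CPM per kilobase in the resistant line and at 7.12, 9.86, 56.0 and 4.75 CPM per kilobase in the control line. The GC content of their transcripts is 40.1%, 38.8%, 53.4% and 40.03% in the same order, so SPC24 also differs from the others in composition.

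The promoter windows of these subunits are shown because transcripts of 1 complex moved in opposite directions before adjustment. They are RefSeq windows of GRCh38.p14 from 250 bases before to 50 bases after the start of the gene, in the direction of transcription. Capitals mark matches on either strand to TTTGAA (the core of the cell cycle genes homology region, CHR, bound by MuvB complexes in G2 and M phase genes), CCAAT (bound by NF-Y), and TTGGCGC or TTCCCGC (E2F sites). The NDC80 window is chr18:2571307-2571606 (plus strand), that of NUF2 chr1:163321704-163322003 (plus strand), that of SPC24 chr19:11155733-11156032 (minus strand) and that of SPC25 chr2:168890381-168890680 (minus strand).
NDC80: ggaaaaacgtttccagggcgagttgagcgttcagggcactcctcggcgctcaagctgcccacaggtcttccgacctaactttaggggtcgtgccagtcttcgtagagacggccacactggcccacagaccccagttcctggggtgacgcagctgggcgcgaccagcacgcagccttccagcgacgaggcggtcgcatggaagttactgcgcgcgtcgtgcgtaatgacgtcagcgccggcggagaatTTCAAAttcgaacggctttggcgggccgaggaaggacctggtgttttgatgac
NUF2: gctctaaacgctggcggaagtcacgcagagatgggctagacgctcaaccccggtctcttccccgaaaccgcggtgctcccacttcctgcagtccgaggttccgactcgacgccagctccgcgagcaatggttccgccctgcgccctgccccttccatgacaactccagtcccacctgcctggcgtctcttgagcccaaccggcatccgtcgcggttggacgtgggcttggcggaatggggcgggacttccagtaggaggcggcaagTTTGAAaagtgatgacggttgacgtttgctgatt
SPC24: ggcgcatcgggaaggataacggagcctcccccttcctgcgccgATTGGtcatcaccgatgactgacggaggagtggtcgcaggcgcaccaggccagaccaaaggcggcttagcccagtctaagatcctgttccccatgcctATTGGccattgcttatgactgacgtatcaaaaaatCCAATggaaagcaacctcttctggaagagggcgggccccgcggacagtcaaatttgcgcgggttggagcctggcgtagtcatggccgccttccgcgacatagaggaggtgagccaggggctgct
SPC25: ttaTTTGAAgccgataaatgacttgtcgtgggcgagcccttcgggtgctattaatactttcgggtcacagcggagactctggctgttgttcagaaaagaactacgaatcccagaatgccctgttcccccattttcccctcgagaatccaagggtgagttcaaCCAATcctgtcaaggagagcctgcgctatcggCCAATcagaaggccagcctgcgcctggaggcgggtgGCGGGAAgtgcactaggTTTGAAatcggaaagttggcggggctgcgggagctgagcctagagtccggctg
The NDC80 and NUF2 windows hold 1 CHR match each and no match to the other motifs. The SPC24 window holds 3 CCAAT matches and no CHR match, and the SPC25 window holds 2 CHR, 2 CCAAT and 1 E2F match.

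RefSeq windows were found for 30 of the 35 genes, 35 windows in all since some genes have several starts. CHR matches were in 45.7% of these windows and in 15.2% of all 35116 windows of the table, which include non-coding genes. CCAAT matches were in 60% against 34.6%, and E2F matches in 31.4% against 9.23%. Of the 15 genes with a CHR match, 5 were higher and 6 lower, and after GC adjustment 2 were higher and 9 lower. Of the 15 without one, 8 were higher and 6 lower, and after GC adjustment 4 were higher and 10 lower. A match describes the letters of the window and does not show that a factor binds there.

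The MIS12 complex, which links the inner kinetochore to NDC80, also held subunits of both directions. PMF1, its subunit with the largest change and the highest CPM, was at 29.9, 23.5 and 31.7 CPM in the resistant libraries, against 62.2, 64.96 and 62.98 CPM in the control libraries. No libraries overlapped, and the log2 fold change was -1.16 ± 0.13 (SE, adjusted p = 4.60e-06, GC-adjusted -0.30, adjusted p = 0.0237). Without resistant replicate 2 the GC-adjusted value did not pass (-0.23, adjusted p = 0.0752). In the annotation 49.2% of the exonic bases of PMF1 are shared with the readthrough gene PMF1-BGLAP, which had 0 counts in every library. NSL1 rose to 45.4 ± 1.58 CPM in the resistant line, against 29.1 ± 1.86 CPM in the control line (SD, n = 3 each), with a log2 ratio of 0.64 ± 0.11 (SE, adjusted p = 1.50e-04) that was 0.59 after GC adjustment (adjusted p = 6.69e-05).

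MIS12 itself was at 9.26, 12.6 and 11.4 CPM in the resistant libraries, against 10.5, 6.50 and 6.76 CPM in the control libraries, with control replicate 1 inside the resistant range. The fitted log2 fold change was 0.48 ± 0.20 (SE, adjusted p = 0.0451) and turned to -0.38 after GC adjustment (adjusted p = 0.0435). The unadjusted call was lost without resistant replicate 2, resistant replicate 3, control replicate 2 or control replicate 3, with log2 fold changes of 0.31 to 0.69 and an adjusted p of up to 0.214 over the 6 fits. The GC-adjusted call was lost without resistant replicate 1, 2 or 3 or control replicate 1, with values of -0.23 (control replicate 1) to -0.43 (resistant replicate 2) and an adjusted p of up to 0.172.

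DSN1, the subunit that is phosphorylated by Aurora B to strengthen binding to the inner kinetochore, was at 23.3, 26.6 and 28.9 CPM in the resistant libraries, against 28.03, 25.2 and 23.8 CPM in the control libraries, and the groups overlapped. Its log2 fold change of 0.032 ± 0.12 (SE) did not pass (adjusted p = 0.821), and it was -0.56 after GC adjustment (adjusted p = 8.33e-05). Per kilobase and without GC adjustment, MIS12, DSN1, NSL1 and PMF1 were at 4.43, 12.3, 42.5 and 27.8 CPM in the resistant line and at 3.17, 12.1, 27.3 and 62.2 CPM in the control line.

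**Figure D4:**
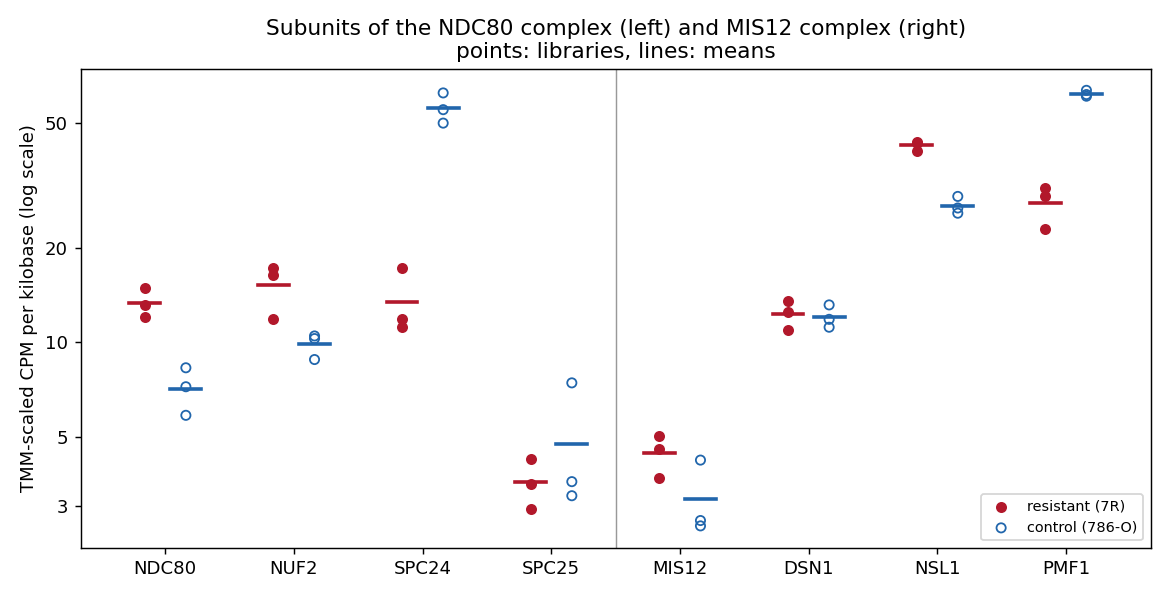
TMM-scaled CPM per kilobase of transcript (y axis, log scale) of the subunits of the NDC80 complex (left of the line) and the MIS12 complex (right of it), for the 3 resistant (filled red) and 3 control (open blue) libraries, with the mean as a bar. SPC24 averaged 13.5 in the resistant line and 56.0 in the control line, while NDC80 averaged 13.4 and 7.12 CPM per kilobase in the same order of lines.

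The SKA complex, which stabilises kinetochore attachment to microtubule ends, gave 1 call before adjustment. SKA2 was at 83.4, 97.03 and 96.5 CPM in the resistant libraries, against 54.04, 52.7 and 36.9 CPM in the control libraries, with all resistant libraries above all control libraries. Its log2 fold change of 0.95 ± 0.15 (SE, adjusted p = 8.56e-05) turned to -0.25 after GC adjustment (adjusted p = 0.0351), where the groups overlapped. With GC content alone adjusted it did not pass (-0.12, adjusted p = 0.282), nor with GC content and length adjusted and without resistant replicate 2, control replicate 1 or control replicate 2 (-0.19 to -0.26, adjusted p of up to 0.111). Per kilobase SKA2 had the highest level of the 35 in the resistant line, at 140.5 CPM, against 72.9 CPM in the control line. CDCA8 was highest in the control line (26.2 CPM in the resistant and 88.8 CPM in the control line). The rank of SKA2 rests on a length of 657 bases, the median over its annotated transcripts. Its exons cover 2993 bases, and a longer transcript would give a lower value per kilobase.

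SKA3 was at 32.01, 36.5 and 31.9 CPM in the resistant libraries, against 31.7, 31.5 and 28.6 CPM in the control libraries. The resistant libraries lay just above the control ones, and the log2 fold change of 0.13 ± 0.11 (SE) did not pass (adjusted p = 0.301); after GC adjustment it was -0.80 (adjusted p = 8.20e-06). SKA1 had the lowest CPM of the 35 and scattered within each line. Its level was 1.88, 3.48 and 0.612 CPM in the resistant libraries, against 1.20, 0.369 and 2.10 CPM in the control libraries, from 16 to 149 counts in a library, and its log2 fold change of 0.70 ± 0.60 (SE) was less than the spread between libraries (adjusted p = 0.305, GC-adjusted -0.21, adjusted p = 0.778). A change of SKA1 was not detectable at this depth and spread.

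Before adjustment, CENPE and CENPF of the fibrous corona and outer linkers gave the largest increases of the 35 genes after CENPJ, a centriole gene. After GC adjustment NSL1 of the MIS12 complex (0.59) and SPDL1 (0.52) came ahead of CENPE (0.48) and CENPF (0.37). CENPE, the kinesin motor that carries chromosomes towards the spindle equator, was at 37.2, 86.7 and 65.2 CPM in the resistant libraries, against 19.7, 14.2 and 14.2 CPM in the control libraries. Its resistant libraries were all above the control ones but differed among themselves more than 2-fold, with replicate 1 the lowest. The fitted log2 fold change was 1.97 ± 0.25 (SE, adjusted p = 1.80e-05) and 0.48 after GC adjustment (adjusted p = 0.0225), where the groups overlapped; without resistant replicate 1 the GC-adjusted value was 0.67. The GC-adjusted call was lost without resistant replicate 2 (0.28, adjusted p = 0.0820), control replicate 2 (0.41, adjusted p = 0.0913) or control replicate 3 (0.47, adjusted p = 0.0630).

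The CENPE window, chr4:103198294-103198593 on the minus strand of GRCh38.p14, is shown as the promoter of the kinetochore gene with the largest increase that has one, and it holds none of the motifs searched.
CENPE: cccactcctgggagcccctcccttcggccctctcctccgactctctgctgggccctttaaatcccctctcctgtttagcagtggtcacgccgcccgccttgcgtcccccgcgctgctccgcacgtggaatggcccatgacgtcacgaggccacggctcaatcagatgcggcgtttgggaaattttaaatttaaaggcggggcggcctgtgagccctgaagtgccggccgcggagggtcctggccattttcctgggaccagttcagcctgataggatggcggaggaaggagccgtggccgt

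CENPF, a large coiled-coil protein of the corona that accumulates in G2, was the most abundant of the 35 transcripts in the resistant line. Its level was 194, 410.1 and 359 CPM in the resistant libraries, against 118, 109.7 and 95.9 CPM in the control libraries. It alone accounted for between 13% and 23.1% of the summed CPM of the 35 genes in resistant libraries and between 5.16% and 6.25% in control libraries. The fitted log2 fold change was 1.57 ± 0.22 (SE, adjusted p = 3.40e-05) and 0.37 after GC adjustment (adjusted p = 0.0435), which became 0.56 without resistant replicate 1. In each of the other 5 fits with a library left out the GC-adjusted call was lost, with values of 0.22 (without resistant replicate 2) to 0.40 and an adjusted p of up to 0.189. In GC-adjusted values resistant replicate 1 lay below the control libraries and replicates 2 and 3 above them.

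SPDL1, or Spindly, which joins dynein to the corona, rose: it was at 49.2, 66.7 and 58.1 CPM in the resistant libraries, against 35.5, 25.5 and 20.8 CPM in the control libraries. These libraries did not overlap, and the log2 ratio of 1.09 ± 0.18 (SE, adjusted p = 1.55e-04) was 0.52 after GC adjustment (adjusted p = 0.00554). ZW10, of the ROD, ZW10 and Zwilch complex, rose by a log2 ratio of 0.53 ± 0.13 (SE, adjusted p = 0.00222), which was -0.10 after GC adjustment (adjusted p = 0.382). ZWINT, which binds KNL1 and helps to recruit that complex, moved the other way. It fell to 76.3 ± 8.50 CPM in the resistant line, against 119.9 ± 3.25 CPM in the control line (SD, n = 3 each), with a log2 ratio of -0.65 ± 0.11 (SE, adjusted p = 1.65e-04) before and -0.62 after GC adjustment.

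The 3 spindle checkpoint genes did not move together. BUB3, a WD-repeat protein that brings the BUB kinases to KNL1, was at 106, 116 and 107 CPM in the resistant libraries, against 103, 99.5 and 93.9 CPM in the control libraries. The resistant libraries were slightly above the control ones, and the log2 fold change of 0.15 ± 0.10 (SE) did not pass before (adjusted p = 0.180) or after GC adjustment (0.045, adjusted p = 0.566). Scaled by library size alone, BUB3 was higher (0.49, adjusted p = 0.00102), as were MAD2L1 (0.43), DSN1 (0.37) and SKA3 (0.47), which GC adjustment called lower. MAD2L1, the MAD2 protein that inhibits CDC20, was at 44.3, 48.6 and 45.4 CPM in the resistant libraries, against 47.4, 44.7 and 38.3 CPM in the control libraries; the groups overlapped (0.087 ± 0.11 (SE), adjusted p = 0.502).

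After GC adjustment MAD2L1 was among the largest falls, with a log2 fold change of -1.13 (adjusted p = 1.10e-06); its transcripts have a GC content of 39.4%. MAD1L1, the MAD1 protein that anchors MAD2 at unattached kinetochores, turned the opposite way and has the highest GC content of the 35, 62.4%. It was at 31.1, 24.5 and 24.1 CPM in the resistant libraries, against 51.996, 52.3 and 59.5 CPM in the control libraries, with no overlap, and its log2 fold change of -1.04 ± 0.13 (SE, adjusted p = 1.27e-05) turned to 0.31 after GC adjustment (adjusted p = 0.00354).

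The 2 members of the chromosomal passenger complex, which carries Aurora B to the inner centromere and corrects wrong attachments, both fell before adjustment. CDCA8, or borealin, was at 73.5, 53.5 and 60.96 CPM in the resistant libraries, against 204, 221 and 211 CPM in the control libraries, more than 2-fold apart in every comparison of a resistant with a control library. The fitted log2 fold change was -1.76 ± 0.13 (SE, adjusted p = 2.51e-07) and -1.38 after GC adjustment (adjusted p = 2.88e-07). INCENP, the scaffold that activates Aurora B, was at 109, 92.7 and 88.2 CPM in the resistant libraries, against 208, 211 and 219.6 CPM in the control libraries, without overlap and with a log2 ratio of -1.14 ± 0.11 (SE, adjusted p = 1.59e-06). After GC adjustment its value was -0.00059 and did not pass (adjusted p = 0.994).

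The CDCA8 window, chr1:37692266-37692565 on the plus strand of GRCh38.p14, is shown as the promoter of a gene that fell with and without the adjustment. It holds 1 CHR and 3 CCAAT matches, of which the CHR match and the last CCAAT match, on the other strand, overlap by 1 base.
CDCA8: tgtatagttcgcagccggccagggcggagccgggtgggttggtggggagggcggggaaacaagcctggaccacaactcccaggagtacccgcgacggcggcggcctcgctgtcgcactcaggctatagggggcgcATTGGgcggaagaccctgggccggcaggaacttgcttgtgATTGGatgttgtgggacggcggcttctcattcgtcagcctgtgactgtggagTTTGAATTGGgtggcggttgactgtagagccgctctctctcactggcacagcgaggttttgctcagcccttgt

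CENPJ carries a CENP name but encodes CPAP, a centriole protein that sets centriole length, and it showed the largest increase of the 35 genes. Its level was 41.2, 57.96 and 53.2 CPM in the resistant libraries, against 13.3, 9.91 and 10.7 CPM in the control libraries, so that each resistant library was at least 3-fold above each control library. The fitted log2 fold change was 2.17 ± 0.16 (SE, adjusted p = 2.96e-07) and 1.30 after GC adjustment (adjusted p = 6.45e-07), the highest of the 35 on both scales.

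A further 42 genes of the kinetochore, the centromere and their recruiting factors were set beside the 35. Of the 41 that could be tested, 21 were higher and 15 lower in the resistant line, with a median log2 fold change of 0.28. Over all tested genes 39.3% were higher and 36.9% lower, with a median of 0.049. Of 39 with a GC value, 10 were higher and 16 lower after GC adjustment, with a median of -0.092. The shares over all genes were then 34.3% and 32.6%, with a median of 0.018. The largest increases among those with a mean of at least 5 CPM were AHCTF1, a nucleoporin that binds chromatin, CENPC, the central inner kinetochore scaffold, SUGT1, a co-chaperone of MIS12 complex assembly, and KNL1, the platform of the checkpoint proteins. Their log2 fold changes were 1.88, 1.82, 1.70 and 1.61, and after GC adjustment 0.53, 0.47, 0.40 and 0.19, the last not past the threshold (adjusted p = 0.122). KNL1 is listed in the table under its older symbol, CASC5.

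CENPC was at 27.8, 39.4 and 39.3 CPM in the resistant libraries, against 10.8, 8.92 and 10.4 CPM in the control libraries, and the libraries did not overlap. The largest decreases were CENPB, which binds centromeric satellite DNA, MAD2L2, a MAD2 relative that acts mainly in DNA repair, CENPX, a histone-fold partner of CENPS listed under the older symbol STRA13, and AURKB, the Aurora B kinase. Their log2 fold changes were -1.89, -1.64, -1.57 and -1.48, and for those with a GC value -0.40 (CENPB), -0.41 (MAD2L2) and -0.57 (AURKB) after GC adjustment. AURKB fell together with CDCA8 before and after the adjustment, while INCENP did so only before it.

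Gene groups of the same cell cycle programme were set beside the 35 as well. Over all tested genes 39.3% were higher and 36.9% lower. After GC adjustment these shares were 34.3% and 32.6%, with a median of 0.018. Of 14 mitotic kinases, cyclins and regulators, 8 were lower and 4 higher, and after GC adjustment 12 were lower and 0 higher, with a median log2 fold change of -0.79. The count of 4 became 2 without resistant replicate 2, control replicate 2 or control replicate 3. Of 11 replication licensing genes, 6 were lower and 0 higher, and after GC adjustment 10 were lower and 0 higher, with a median of -0.69; scaled by library size alone, 3 were higher. These counts are descriptions, and the differences between the lists were not tested.

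**Figure D5:**
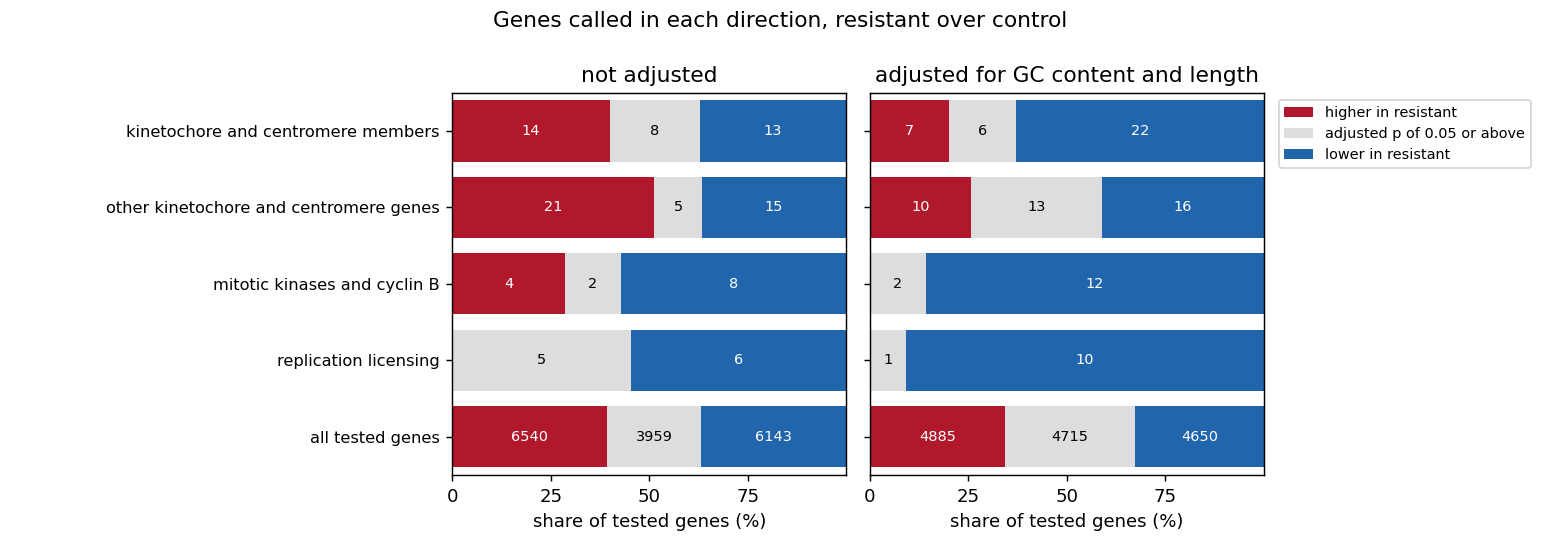
Share of tested genes (x axis, %) that were higher (red), not past the threshold (grey) or lower (blue) in the resistant line, for the 35 kinetochore and centromere genes, 3 other gene lists and all tested genes (y axis), before adjustment (left) and after GC adjustment (right); numbers are gene counts. After GC adjustment 22 of the 35 genes were lower, against 4650 of 14250 genes overall.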

How the data were processed

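Total RNA from 3 libraries each of 7R and 786-O cells was sequenced, and the authors deposited 1 table of raw read counts per gene. The submitters' processing notes name HISAT2 2.0.4. For the counting program, its strand setting, the annotation and the genome build, the entry is: not given in the sources used here. Groups come from the phenotype labels of the samples, and replicate numbers from the sample titles.

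The deposited counts of 54261 gene rows were filtered with filterByExpr, scaled with TMM factors and tested in R 4.3.3 with edgeR 4.0.16 (glmQLFit and glmQLFTest, resistant over control, Benjamini-Hochberg threshold 0.05). SE is the log2 fold change divided by the square root of F. For the GC adjustment and the values per kilobase, GC content and length were medians over the basic transcripts of each symbol in GENCODE release 29. Direct symbol matches covered 34629 rows and other symbols 1353, while 18279 rows had no match or an ambiguous one. Per library, a spline on GC content (6 df) and log2 length (5 df) was fitted to log2 CPM (prior count 1) and its deviation from the gene's mean over libraries entered edgeR as an offset. The scripts were tested on simulated data in which 200 genes were changed. Of the calls at 0.05, 13.9% were false without a trend. With a GC and length trend put in, 98.4% were false in the unadjusted and 10.1% in the GC-adjusted fit. Changes of 1.5-fold were recovered for 38.5% of genes without a trend and 41.8% in the GC-adjusted fit. The trend put in was the curve fitted to these libraries, so its source was not tested. It has the form that the GC-adjusted fit removes, so the contrast between the 2 fits follows from the setup. Only 200 genes were changed, where 76.2% of all tested genes were called in these data. The shares of false calls therefore do not carry over to the results above. Promoter windows are RefSeq, GRCh38.p14.

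The alternatives were other scalings, filters and adjustments, DESeq2 1.42.0, each library left out, and the replicate number as a block. Leaving out the 5 genes whose exons overlap another gene over more than 10% of their length and leaving out each library in the GC-adjusted fit were added after the data had been seen. The 35 genes and the other lists were chosen with earlier results of these data known. All 35 are named. Values per library are given for the gene of each role class with the largest fold change and for the one with the highest mean CPM, for genes called in opposite directions with and without GC adjustment, for genes not called, and for CENPK, SPDL1 and CENPC, which were added after their values had been seen. Of other kinetochore genes, up to 4 in each direction with a mean of at least 5 CPM are named, and of other lists up to 3 with the smallest p, beside PAX8 and the markers with 0 counts in every library. Intervals and p-values cover 3 libraries a line, and no batch is given in the labels.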

Additional observations from a re-analysis of the deposited data

How the results depend on the processing

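The main counts of 14 higher and 13 lower genes became 7 and 22 with GC content and length adjusted, 7 and 20 with GC content alone, 6 and 20 with the replicate block and the GC adjustment together, and 7 and 20 with the adjustment and without resistant replicate 1. In the same order the median of 0.087 became -0.35, -0.37, -0.36 and -0.34. It was 0.43 with library size alone and 0.16 over genes with a GC value without adjustment, where the SD between resistant libraries is 0.073. Leaving out 1 library gave 12 to 14 higher genes, 13 to 14 lower genes and medians of 0.018 to 0.11, with 6179 to 6789 of all genes higher and 5894 to 6410 lower. Without the 5 genes whose exons overlap another gene, 13 were higher and 9 lower, and 7 and 18 after GC adjustment. With DESeq2, upper-quartile factors and the filter of 1 CPM all 35 genes kept their direction and side of the threshold. With library size alone CENPH (0.071) and CENPL (0.11) changed sign, CENPW no longer passed (-0.20), and DSN1 (0.37), SKA3 (0.47), BUB3 (0.49) and MAD2L1 (0.43) were called higher. Leaving out 1 library in the GC-adjusted fit gave 5 to 7 higher and 16 to 20 lower genes, with changes of sign only for CENPU, NDC80, SKA1 and INCENP, which were not called. Among single libraries left out, SPC25 ranged from -0.68 to 0.031, changing sign without control replicate 3, and MAD2L1 from -0.031 to 0.11, changing sign without the same library. DSN1 ranged from -0.055 to 0.10, and was below 0 without resistant replicate 3 (-0.045), control replicate 2 (-0.030) or control replicate 3. With GC adjustment these genes changed sign: CENPI (-0.22, -0.33, -0.23 and -0.29), CENPQ (-0.55, -0.76, -0.56 and -0.43), CENPU (-0.019, -0.20, -0.019 and 0.037), NDC80 (-0.043, -0.18, -0.040 and -0.065), NUF2 (-0.40, -0.59, -0.41 and -0.35), MIS12 (-0.38, -0.46, -0.37 and -0.34), DSN1 (-0.56, -0.70, -0.56 and -0.53), SKA1 (-0.21, -0.20, -0.20 and -0.23), SKA2 (-0.25, -0.12, -0.24 and -0.26), SKA3 (-0.80, -0.83, -0.81 and -0.85), ZW10 (-0.10, -0.11, -0.10 and -0.14), MAD2L1 (-1.13, -1.06, -1.13 and -1.21), MAD1L1 (0.31, 0.32, 0.31 and 0.28). The values given in a set are, in order, those with GC content and length adjusted, with GC content alone, with the replicate block and the adjustment together, and with the adjustment without resistant replicate 1. With GC content alone adjusted, BUB3 was -0.051 and INCENP 0.062. The cause of these changes was not tested beyond the GC term itself. Same-numbered libraries did not deviate together (correlations of -0.13, -0.013 and -0.058), so no pairing by number was seen. With 3 libraries a line, whose deviations from their mean are not independent, these correlations cannot settle whether same-numbered libraries were prepared together. With the replicate block 12 genes were higher and 13 lower, and CENPQ (adjusted p = 0.0772) and MIS12 (adjusted p = 0.0705) were no longer called; with the block and the GC adjustment together CENPE (adjusted p = 0.0512), SKA2 (adjusted p = 0.0575) and MIS12 (adjusted p = 0.0823) were not. The filter on low counts removed none of the 35 genes, and SKA1 had the fewest counts among them, 16 to 149 a library.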

Other observations

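A list of proliferation markers and cell cycle regulators, which the comparisons above do not use, held both directions too. Of its 14 genes 5 were higher and 7 lower in the resistant line, against 39.3% and 36.9% of all tested genes. The 5 higher genes were TOP2A and the regulators LIN54, LIN9, RBL1 and RBL2. The marker MKI67 did not pass before adjustment (0.070, adjusted p = 0.644). It was lower after GC adjustment (-0.32, adjusted p = 0.0195), but not with GC content alone adjusted (0.017, adjusted p = 0.906). After GC adjustment 1 was higher and 8 lower, against 34.3% and 32.6%. The median log2 fold change of the 14 was -0.36 before and -0.24 after it. The 3 with the smallest p in edgeR's quasi-likelihood test were E2F1, a transcription factor of S phase entry, FOXM1, a transcription factor of G2 and M phase genes, and TOP2A, the DNA topoisomerase of mitotic chromosomes. E2F1 was at 50.4 ± 5.42 CPM in the resistant line and 144.3 ± 11.999 CPM in the control line (SD, n = 3 each), and after GC adjustment its difference did not pass (-0.12, adjusted p = 0.176). FOXM1 was at 156.2 ± 30.4 CPM in the resistant line and 445.9 ± 28.5 CPM in the control line, and stayed lower after the adjustment (-0.82, adjusted p = 9.93e-06). TOP2A was at 243.6 ± 43.7 CPM in the resistant line and 90.9 ± 9.19 CPM in the control line, and after the adjustment narrowly missed the threshold (0.16, adjusted p = 0.0518).

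Of the mitotic kinases and regulators, PKMYT1, PLK1 and CDC20 had the smallest p-values, with log2 fold changes of -2.77, -1.95 and -1.91 and GC-adjusted values of -1.12, -0.87 and -0.77. Of the replication licensing genes these were CDT1, MCM5 and MCM2, with log2 fold changes of -2.47, -1.96 and -1.59 and GC-adjusted values of -1.06, -0.91 and -0.58. All 6 genes had every resistant library below every control library. As they were chosen by their small p-values, this separation adds nothing to those values. Over all tested genes 80.3% had groups of libraries that did not overlap.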
